A study of Mus musculus with 6 samples.

Results

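The cytosolic ribosomal protein genes encode the proteins of the ribosome that works in the cytoplasm. Their rows were chosen by name, as symbols that begin with Rpl, Rps or Rplp and a number, together with Rpsa, and without the Rps6k kinase genes. This gave 91 genes of the 19378 in the series. By their known roles, 43 encode proteins of the large subunit, 31 encode proteins of the small subunit, and 3 (Rplp0, Rplp1 and Rplp2) encode the stalk of the large subunit, where translation factors dock. A further 11 are paralogs or retrogenes of these, 2 are pseudogenes by name, and 1 (Rps19bp1) encodes a protein that binds Rps19 and is no part of the ribosome.

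The ribosome links amino acids into proteins, and its proteins are needed in nearly matching amounts in every growing cell. Their genes are therefore active in all tissues, and their promoters are textbook examples of promoters that carry H3K4me3 and H3K27ac and lack H3K27me3. H3K4me3 marks active promoters, H3K27ac marks active promoters and enhancers, and H3K27me3 marks genes silenced by Polycomb complexes. Many of these promoters start transcription at a C within a run of pyrimidines, the 5′ TOP tract, through which translation of their mRNAs is tied to growth signals.

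Each mark was measured on an array of barcoded spots, where an antibody brings a fusion of protein A and the transposase Tn5 to the marked chromatin and the cut fragments receive the barcode of their spot. Wild-type whole embryos at E11.5 gave 3 cryosections of 16 µm, 1 each for H3K27me3, H3K27ac and H3K4me3. A wild-type adult brain gave 1 cryosection of 20 µm for H3K4me3. Paws of adult mice were decalcified, embedded in paraffin and cut at 4 µm around the talus for H3K27ac: 1 section came from a mouse with CIA (collagen-induced arthritis) at 42 days, and 1 came from a control at 42 days. With 1 section per group no difference between groups could be tested, printed intervals cover counting error only, and every value describes these sections.

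The deposited values depended on the order in which tied genes were listed, so sequencing reads per gene were recovered from the ranks. The sections held 403483 to 5981684 recovered reads in 248 to 1200 spots. The median gene had 14 reads in the embryo H3K27me3 section, 12 in H3K27ac and 7 in H3K4me3, 120 in the brain, 274 in the arthritis paw and 142 in the control paw. Genes of known tissue expression did not set the tissues apart: 9 of the 10 brain markers held by the brain section lay above its median, but so did 10 to 12 of 13 brain markers in the embryo sections and 11 of 13 in the control paw. The brain section held rows for 10 of the 13 brain markers, beside 58.55% of all genes, and none for Gad1, Gfap and Mbp. The arthritis paw held rows for 10 of the 14 paw markers, beside 57.44% of all genes, and none for Acan, Krt14, Ptprc and Ctsk.

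The ribosomal protein genes ranked below the middle of all genes in every section, whatever the mark. In the embryo their median percentile by reads was 39.5 for H3K27me3, 41.2 for H3K27ac and 43.0 for H3K4me3. The brain had 42.4, the arthritis paw 40.9 and the control paw 39.3. The medians of the repressive mark and of both active marks in the embryo thus lay close together. Of the members held, 36 of 89 were above the section median for H3K27me3, 38 of 89 for H3K27ac and 39 of 86 for H3K4me3, beside 49.4%, 51.2% and 49.8% of all genes. In the brain 17 of 46 were above it (50% of all genes), in the arthritis paw 19 of 42 (50%), and in the control paw 35 of 91 (49.9%). The top 10% of genes by reads held 2, 4 and 6 members for H3K27me3, H3K27ac and H3K4me3 (9.91%, 10.1% and 10.1% of all genes). It held 2 in the brain (9.99%), 2 in the arthritis paw (10%) and 6 in the control paw (10%). These are reads per gene and not per length, since the labels and headers do not say which stretch of each gene was counted.

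**Figure D1:**
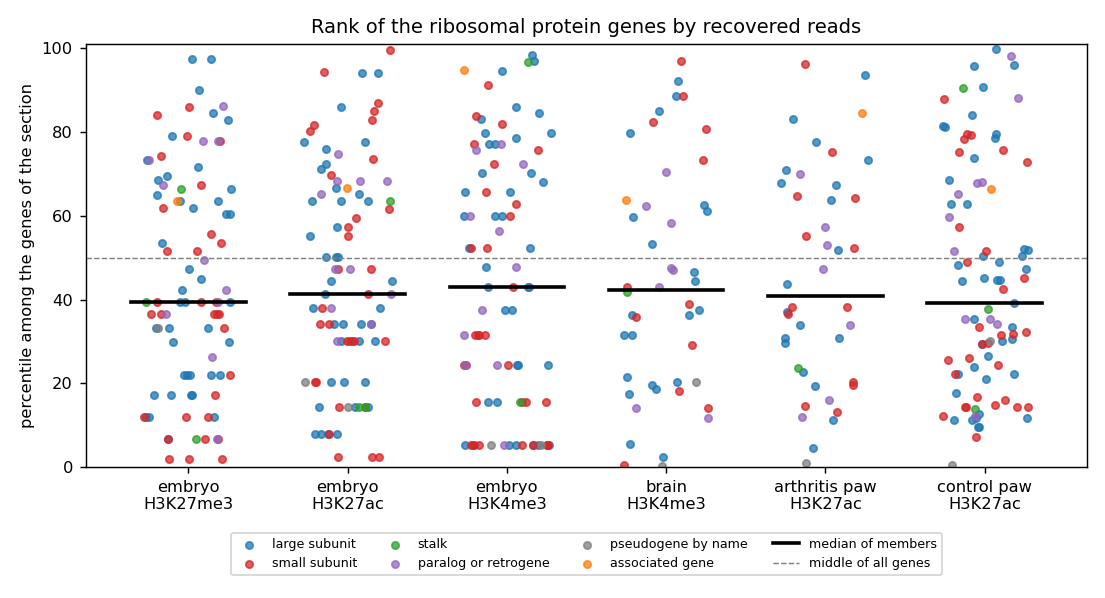
Percentile of each ribosomal protein gene among the genes of its section by recovered reads (vertical axis, 0 to 100), for the 6 sections. Each point is 1 gene coloured by its role, the black bars are the members' medians (39.3 to 43.0) and the dashed line is the middle of all genes. Members spread over the whole range in every section.

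The members' summed share of reads was below their share of genes throughout. They held 0.241% of the embryo H3K27me3 reads (exact 95% binomial interval 0.230 to 0.252), 0.342% of the H3K27ac reads and 0.287% of the H3K4me3 reads, where they made up 0.467%, 0.470% and 0.476% of the genes. The share was 0.300% in the brain, 0.262% in the arthritis paw and 0.420% in the control paw. A single gene carried much of some sums. In a setting chosen after the data were seen, the share was taken without the most-read member: without Rps12 the H3K27ac share was 0.237%, and without Rpl26 the control paw share was 0.287%. Such shares cannot be set against those of sections that keep their most-read member.

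Other genes of protein synthesis ranked in the same part of the range. The median percentile of the Mrpl and Mrps genes, which encode the ribosome of mitochondria, was 33.3, 37.9 and 31.6 for embryo H3K27me3, H3K27ac and H3K4me3. The Eif and Eef genes, which encode translation factors, had 46.0, 47.3 and 43.0. Olfactory receptor genes, which are mostly silent in these tissues, had 17.2, 20.4 and 15.5. Their most-read gene still had 791, 772 and 1685 reads in the same order. The most-read ribosomal protein gene had 217, 575 and 170. In the control paw these were at least 12712 and at least 7973. A high count at a single gene was thus not particular to the ribosomal protein genes. By reads, the olfactory receptors ranked lowest in the brain (16.7), the arthritis paw (18) and the control paw (8.33) as well. On the deposited values they did not in the brain (50.6) and the arthritis paw (57.2), where the ribosomal protein genes had 38.5 and 40.7. The brain held rows for 29.2% of the receptors and the arthritis paw for 25.5%, beside 58.55% and 57.44% of all genes. Outside the naming rule, Fau, which encodes a ribosomal protein made as a fusion with a ubiquitin-like protein, had 14, 16 and 11 reads under the embryo marks. Rack1, a scaffold on the small subunit, had 17, 7 and 5 reads.

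The order of the members was much alike between sections of different marks and tissues. Spearman's rho of their reads across members was 0.73 between H3K27me3 and H3K27ac (87 members), 0.75 between H3K27me3 and H3K4me3 (84) and 0.65 between H3K27ac and H3K4me3 (84). The lowest value, 0.42, was between embryo H3K27ac and the arthritis paw (42 members), and the highest, 0.85, was between embryo H3K27me3 and the control paw (89 members). Over all genes the values ran between 0.61 and 0.76. Members share length, mappability and base composition between sections, and they are not independent replicates.

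By role, small subunit genes had the lower median percentile in 4 of the 6 sections. It was 36.5 for the small and 40.9 for the large subunit under H3K27me3, 41.2 for both under H3K27ac, and 31.6 and 52.3 under H3K4me3. In the brain the small subunit had 41.0 and the large 36.9, so the order was the other way there. The arthritis paw had 38.2 and 43.6, and the control paw 31.5 and 44.8. The 11 paralogs and retrogenes had medians of 49.5, 47.3 and 47.9 under the embryo marks and 59.8 in the control paw, above both subunits except under H3K4me3, where the large subunit was higher. The 8 held in the brain had 47.3 and the 7 held in the arthritis paw 47.2, above both subunits there. Several of these paralogs, such as Rpl10l and Rpl39l, are known for expression in the testis, and Rpl3l for expression in striated muscle.

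In the embryo, the median ratios between marks at these genes lay close to those of all genes, for the repressive mark as for the active ones. The level of a gene is its reads relative to the average gene present in both sections, and log2 ratios of levels were taken after adding 0.1 to each, which draws low genes toward 0. The median log2 ratio of H3K27me3 over H3K4me3 was 0.07 over 84 members and 0.08 over all genes. For H3K27ac over H3K4me3 it was 0.20 over 84 members and 0.20 over all genes, but the members' median was below that of all genes by a log2 difference of -0.29 with genes under 20 reads left out and of -0.32 in the odd array columns. For H3K27me3 over H3K27ac it was -0.10 over 87 members and -0.12 over all genes. The H3K4me3 section enters the first and the second of these comparisons, so a high or low value in it moves both.

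Past a 2-fold difference, 9 members were higher in H3K27me3 than in H3K4me3 and 8 were lower, where 15.1% and 10.4% of all genes were past it. In H3K27ac, 14 members were higher than in H3K4me3 and 8 were lower, beside 17.8% and 9.17% of all genes. In H3K27me3, 3 members were higher than in H3K27ac and 12 were lower, beside 10.4% and 14.1% of all genes. Scaling the sections by the median gene instead of the mean gave 8 higher and 12 lower, 14 higher and 13 lower, and 11 higher and 12 lower in the same order. All genes moved too under that scaling, to 16.96% higher and 17.08% lower, 17.02% and 15.12%, and 15.4% and 16.1%, so the balance between directions depended on the scaling for members and all genes alike. At least 20 reads over both sections were held by 39, 40 and 47 members in the same order of comparisons. Among these, 4 were higher in H3K27me3 than in H3K4me3 and 8 were lower (21% and 13.3% of genes with as many reads). In H3K27ac, 7 were higher than in H3K4me3 and 6 were lower (23.3% and 12.5%). In H3K27me3, 2 were higher than in H3K27ac and 9 were lower (14.3% and 17.3%). Of the 14 members higher in H3K27ac than in H3K4me3, 9 encode small subunit proteins, which are 31 of the 84 members compared. Of the 12 lower in H3K27me3 than in H3K27ac, 6 do, out of 31 among 87. These counts were not tested.

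Of the 82 members held by all 3 embryo sections, 14 had 1 mark at least 2-fold above both others. H3K27me3 stood highest in 2 members (2.44%, beside 7.51% of all genes), H3K27ac in 6 (7.32%, beside 9.27%) and H3K4me3 in 6 (7.32%, beside 6.41%).

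**Figure D2:**
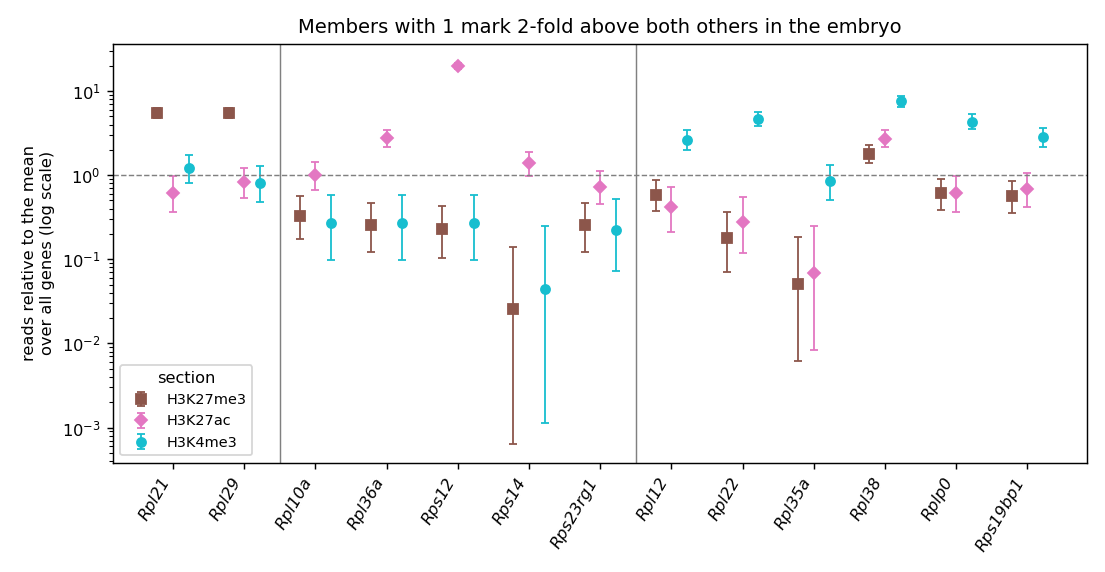
Level of 13 of the members with 1 mark at least 2-fold above both others, as reads relative to the mean over all genes of the section (log scale), in the embryo H3K27me3, H3K27ac and H3K4me3 sections. Bars are exact 95% Poisson intervals of 1 section each, grey lines part the genes by the highest mark, and Rps12 stands highest at 19.8 times the mean in H3K27ac.

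The H3K4me3 members with the most reads were Rpl38, Rpl22 and Rplp0. Rpl38, a large subunit protein whose loss in mice alters the pattern of the vertebrae, had 71 reads for H3K27me3, 79 for H3K27ac and 170 for H3K4me3 (exact 95% Poisson interval 145 to 198). Its log2 ratio without the added 0.1 was -2.14 for H3K27me3 over H3K4me3 (exact interval -2.56 to -1.73) and -1.53 for H3K27ac over H3K4me3 (-1.94 to -1.14). Rpl38 ranked at percentile 90 under H3K27me3, 94.0 under H3K27ac and 98.3 under H3K4me3, so it was high under each embryo mark. Its neighbour Sdk2 was also high under H3K4me3, with 69 reads, and the other neighbour Ttyh2 had 8.

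Rpl22, which binds RNA and is not needed for translation itself, had 7, 8 and 105 reads for H3K27me3, H3K27ac and H3K4me3 (interval 85.9 to 127 for the last). H3K4me3 alone was high at this gene. The log2 ratio over H3K4me3 was -4.79 for H3K27me3 (-6.14 to -3.69) and -4.14 for H3K27ac (-5.39 to -3.11). Its neighbours Rnf207 and Chd5 had 3 and 11 reads in that section. Its paralog Rpl22l1 had 11, 8 and 3 reads, so it was not high under H3K4me3.

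Rplp0, the base of the stalk and a common reference gene in expression studies, had 24, 18 and 97 reads (interval 78.7 to 118 for H3K4me3). The log2 ratio over H3K4me3 was -2.89 for H3K27me3 (-3.60 to -2.24) and -2.86 for H3K27ac (-3.67 to -2.12). Its partners Rplp1 and Rplp2, which form the tip of the stalk, did not share this: Rplp1 had 2, 3 and 2 reads, and Rplp2 had 10 and 3 reads for H3K27me3 and H3K27ac and no row for H3K4me3. Rps19bp1 followed the same pattern as Rplp0, with 22, 20 and 63 reads. Rpl12 (23, 12 and 59 reads) and Rpl35a (2, 2 and 19 reads) were also highest for H3K4me3, but 58 of the H3K4me3 reads of Rpl12 matched reads of Lrsam1 spot by spot and all 19 of Rpl35a matched Iqcg, so those reads cannot be given to 1 gene.

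H3K27ac was highest at Rps12, a small subunit protein with a part in cell competition in flies. It had 9 reads for H3K27me3, 575 for H3K27ac (interval 529 to 624) and 6 for H3K4me3. It alone held 30.7% of the members' H3K27ac reads and ranked at percentile 99.6 there, against 36.5 for H3K27me3 and 43.0 for H3K4me3. An olfactory receptor gene had more reads in the embryo H3K27ac section, 772. The log2 ratio of Rps12 was -6.45 for H3K27me3 over H3K27ac (-7.58 to -5.51) and 6.15 for H3K27ac over H3K4me3 (5.02 to 7.61). In the H3K27ac sections of the paws Rps12 was not high, with 124 reads in the arthritis paw and 83 in the control paw, at percentiles 14.7 and 29.3.

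Its neighbours were above the median as well, Slc18b1 with 131 H3K27ac reads and Eya4 with 91. The reads of Rps12 did not come from a few spots: 216 spots held at least 1, where 213 are expected if reads fall in proportion to spot depth, and the highest spot held 11.

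Other members highest for H3K27ac were Rpl10a (13, 29 and 6 reads), Rps14 (1, 40 and 1), Rpl36a (10, 80 and 6) and the retrogene Rps23rg1 (10, 21 and 5). Rps14 and Rpl10a are standard ribosomal proteins. Of the 80 H3K27ac reads of Rpl36a, 78 coincided by spot with reads of its neighbour Btk, which had 99, so they cannot be given to Rpl36a alone. For Rps14 the log2 ratio was -5.77 for H3K27me3 over H3K27ac, with the wide interval of -11.1 to -3.21 that a single read gives.

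H3K27me3 was highest at Rpl29 and Rpl21, both large subunit proteins. Rpl29 had 217 reads for H3K27me3 (interval 189 to 248), 24 for H3K27ac and 18 for H3K4me3. Rpl21 had 214 (186 to 245), 18 and 27. The log2 ratio over H3K4me3 was 2.71 for Rpl29 (2.02 to 3.50) and 2.11 for Rpl21 (1.53 to 2.74), and over H3K27ac it was 2.73 (2.12 to 3.40) and 3.12 (2.43 to 3.90). Rpl29 lay at percentile 97.49 and Rpl21 at 97.47 for H3K27me3, with 12.0% and 11.8% of the members' reads there. The genes beside them were not as high: Dusp7 and Acy1, next to Rpl29, had 16 and 26 reads, and Usp12 and Rasl11a, next to Rpl21, had 6 and 54. Rpl29 was also above the section median in the brain (262 reads, percentile 85), the arthritis paw (670, 83.1) and the control paw (399, 84.1). Rpl21 was near the middle or below in the paws (184 and 144 reads, percentiles 30.9 and 50.5) and had no row in the brain.

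The mouse genome holds many processed copies of ribosomal protein genes, and the labels do not say how reads that match several places were treated. The level of a member with such copies, Rpl21, Rpl29 and Rps12 included, is uncertain for that reason. Reads coincided by spot with those of a neighbour or another member, in at least 80% of the larger sum, for 22 of the 91 members in at least 1 section. The same count was not made for genes outside the list, so it cannot be set beside a share of all genes. Rpl34 and Rpl34-ps1 had the same reads in each spot in the embryo H3K27me3 section, the brain and the control paw, and Rps27 and its retrogene Rps27rt had the same in embryo H3K27ac and the control paw.

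The summed reads of the members were spread over the tissue much as the depth of the spots would spread them. A spot can hold several cells of different types, so the number of cells and the level per cell cannot be told apart. The variance of the members' summed reads per spot, relative to what Poisson counting at each spot's depth gives, was 1.09 for embryo H3K27me3, 1.01 for H3K27ac and 0.97 for H3K4me3. It was 1.10 in the brain, 1.04 in the arthritis paw and 1.10 in the control paw, where 1 means counting error alone. Counting alone allows about 0.08 either side of 1 in the brain, so the brain value lay just beyond it, and 0.12 in the control paw. The values in the brain and the control paw compare with 1.21 and 1.43 for the translation factors and 0.96 and 1.90 for the mitochondrial ribosomal proteins. Moran's I, which is near 0 without spatial order, lay between -0.03 and 0.05. The median spot held 4 to 42 reads of members, and the size of regional difference that this depth could show was not tested.

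**Figure D3:**
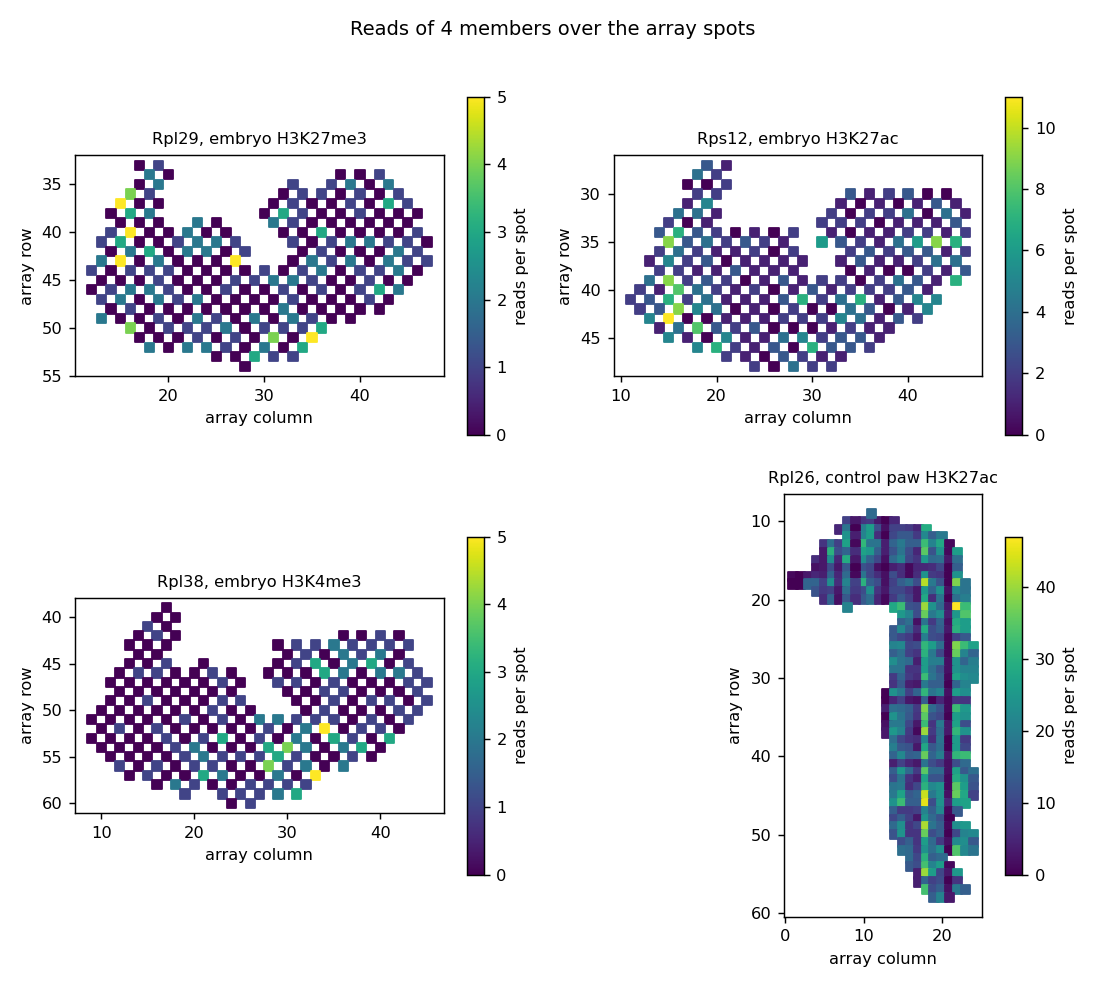
Recovered reads per array spot (colour, from 0) for Rpl29 in embryo H3K27me3, Rps12 in embryo H3K27ac, Rpl38 in embryo H3K4me3 and Rpl26 in the control paw for H3K27ac, at the array row and column of each spot. Each gene's reads lie over the whole section, and Rpl26 is low in array columns 1, 5, 9, 13, 17 and 21 of the control paw.

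The promoters of the members that stood apart are shown so that their motifs can be set beside the levels. The levels are not promoter levels as far as is known, since the stretch counted for each gene is not stated. The windows were taken from RefSeq (GRCm38.p6), 80 bases before to 20 after the start on the strand of the gene. The build differs from the one named for the deposited data (mm9), so the windows show sequence and not the place of reads. Capitals mark matches to the TATA, ETS, Sp1, YY1 or NRF1 motif, spelled out further on, on either strand, and a TOP tract at the start.
Rpl38: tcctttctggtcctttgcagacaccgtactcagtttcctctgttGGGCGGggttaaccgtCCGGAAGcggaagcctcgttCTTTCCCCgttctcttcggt
Rpl22: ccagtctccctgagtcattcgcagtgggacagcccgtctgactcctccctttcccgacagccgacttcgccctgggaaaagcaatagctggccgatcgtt
Rplp0: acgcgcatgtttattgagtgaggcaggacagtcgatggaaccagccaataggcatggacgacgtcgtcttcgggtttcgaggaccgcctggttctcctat
Rps12: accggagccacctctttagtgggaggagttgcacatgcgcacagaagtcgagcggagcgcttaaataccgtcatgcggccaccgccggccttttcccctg
The windows lie at chr11:114668500-114668599 (plus strand) for Rpl38, chr4:152325646-152325745 (plus strand) for Rpl22, chr5:115559387-115559486 (plus strand) for Rplp0 and chr10:23787190-23787289 (minus strand) for Rps12. Rpl38 has a TOP tract of C and pyrimidines at its start, with an ETS and an Sp1 match upstream. The other 3 windows hold none of the listed motifs. The windows of Rpl12 and Rpl35a, also highest for H3K4me3 and not printed here, hold an Sp1 match each.

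Over the whole window of 250 bases before to 50 after the start, 70 members and 15337 genes in all had a sequence. A TOP tract at the start (C and at least 4 pyrimidines after it) was found in 14 members, 20.0% against 2.38% of all genes. Only the exact start of the first window listed for each gene was searched for it. A tract a few bases from the listed start was not counted, so the other members cannot be said to lack one. The ETS motif CCGGAAG was found in 25 (35.7% against 13.2%), the YY1 motif AAGATGG in 9 (12.9% against 6.49%) and the Sp1 motif GGGCGG in 40 (57.1% against 51.8%). TATAAA was found in 8 (11.4% against 11.2%) and the NRF1 motif in 1 (1.43% against 1.5%). The motifs were searched on both strands, and ETS and Sp1 matches may overlap. These shares are descriptions of letters, and a match is not a bound site.

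**Figure D4:**
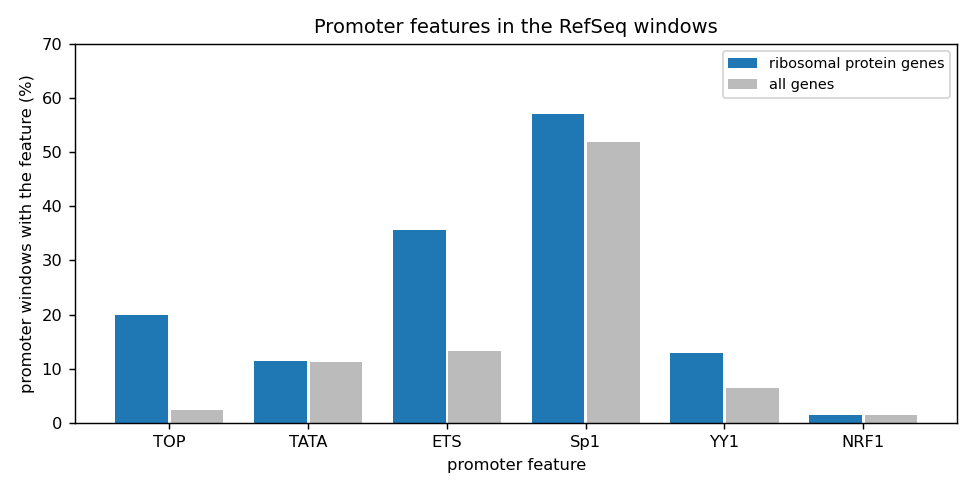
Share of RefSeq promoter windows (percent, from 0) that hold each named feature, for 70 ribosomal protein genes (blue) and 15337 genes in all (grey). TOP tracts, searched at the exact listed start only, are at 20.0% against 2.38% and ETS motifs at 35.7% against 13.2%.

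The genes of Diamond-Blackfan anaemia, an inherited failure of red cell production caused by loss of 1 copy of a ribosomal protein gene, had no shared pattern in the embryo. Rps19, the gene most often affected, had 32 reads for H3K27me3, 32 for H3K27ac and 18 for H3K4me3. Rpl5 had 31, 12 and 12, and Rpl11 had 7, 3 and 6. Rpl5 and Rpl11 form the particle with 5S RNA that holds back Mdm2. Rps26 had 3, 1 and 1. Rpl35a, whose H3K4me3 reads coincide with those of Iqcg, is another of these genes. The counts are too low to set the marks apart for Rpl11 and Rps26.

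Most of the other well-known members had few reads under the embryo marks, and Rpl13a was above the section median under each. Rps6, the target of S6 kinase, had 10, 7 and 11 reads for H3K27me3, H3K27ac and H3K4me3. Rpsa, which also serves as a laminin receptor, had 8, 11 and 8. Rps27a, made as a fusion with ubiquitin, had 3, 4 and 2. Rpl3 at the peptidyl transferase centre had 8, 14 and 5, and Rps3 at the mRNA entry site had 2, 7 and 3. Rpl10, which joins the large subunit late, had no row for H3K27me3 and 4 and 1 reads for H3K27ac and H3K4me3. Rpl13a, often used as a reference gene, had 39, 27 and 13 reads, at percentiles 79.1, 75.8 and 68.0. Rps18, another such gene, had 9, 15 and 8, and 12 of the 15 coincided with reads of Vps52. Rpl32 had 20, 7 and 5.

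A few more members had high or low embryo ratios, or many reads in an embryo section. Rpl41, the smallest ribosomal protein, had 20 reads for H3K27me3, 7 for H3K27ac and 3 for H3K4me3. Rps10 had 15, 22 and 4, and Rpl28 had 27, 9 and 10, of which 26, 9 and 8 coincided with reads of Tmem238. Rps13 (54, 36 and 24) and Rps9 (39, 44 and 40), both small subunit proteins, were above the section median under each mark. The 10 reads of Rpl7 for H3K27me3, its 23 for H3K27ac and its 14 for H3K4me3 all coincided with reads of Rdh10.

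Paralogs differed from their parent genes in no fixed direction. Rpl36al had 55, 21 and 15 reads for H3K27me3, H3K27ac and H3K4me3 where its parent Rpl36a had 10, 80 and 6. Of the 55 H3K27me3 reads of Rpl36al, 48 coincided with those of its neighbour Mgat2. Rpl39l had 9, 9 and 3 where Rpl39 had 50, 18 and 20, Rps27l had 31, 21 and 9 where Rps27 had 2, 6 and 1, and Rpl3l had 6, 7 and 4 where Rpl3 had 8, 14 and 5. Of the 7 H3K27ac reads of Rpl3l, 6 coincided with those of Ndufb10. Rpl7l1 had 25, 11 and 10 where Rpl7 had 10, 23 and 14, and Rpl10l had 14, 11 and 7. These are reads per gene, and the counted lengths of parent and paralog may differ.

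The brain section held 46 of the 91 members (50.5%) and 58.5% of all genes, so 45 members, among them Rpl10, Rplp1, Rplp2, Rps3 and Rps27a, have no value there. The genes without a row had fewer reads elsewhere: in the control paw the members held by the brain had a median of 177 reads and the others 83, beside 206 and 77 for all genes. Values of the 46 are therefore values of the better covered members.

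The adult brain was compared with the E11.5 embryo for H3K4me3. The median log2 ratio of brain over embryo was 0.60 over 46 members and 0.66 over all 11127 genes held by both. All genes thus lay above 0 by 0.66 on this scale, and members are read against that shift. Past 2-fold, 13 members were higher in the brain (31.4% of all genes) and 4 were lower (5.72%). All 46 had at least 20 reads over both sections, where 31.5% of all genes with as many were higher and 5.73% lower. Scaled by the median gene, 7 were higher and 5 lower, beside 12.7% and 12.5% of all genes.

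The 4 members lower in the brain were among those with the most H3K4me3 reads in the embryo. Rpl22 had 64 reads in the brain and 105 in the embryo, although the brain section had 2036521 reads and the embryo section 403483. Its log2 ratio was -3.43 (exact interval -3.90 to -2.97). Rplp0 had 102 and 97 reads (log2 ratio -2.64, -3.06 to -2.23), Rpl38 had 369 and 170 (-1.60, -1.86 to -1.33), and Rps19bp1 had 156 and 63 (-1.41, -1.84 to -0.96). Rpl38 was still at percentile 92.3 in the brain, while Rpl22 was at 18.8 and Rplp0 at 41.7. These 4 genes are low in both embryo comparisons with H3K4me3 too, and all of these comparisons share the embryo H3K4me3 section.

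Rps19 was the highest member in the brain, with 566 reads (interval 520 to 615) at percentile 97.0, against 18 reads in the embryo H3K4me3 section at percentile 77.2. Its log2 ratio was 2.26 (1.59 to 3.02). Rps23, a small subunit protein of the decoding centre, had 305 and 10 reads (2.22, 1.32 to 3.29), and Rpl39l had 179 and 3 (3.18, 1.61 to 5.47). Rpl39, the parent of Rpl39l, had 305 and 20 (1.22, 0.56 to 1.95), so the intervals of parent and paralog overlap. The interval of Rpl39 also holds the all-gene median of 0.66, so Rpl39 is not set apart from the shift of all genes. That median was taken with 0.1 added, and the single-gene ratios were not. Rpl34-ps1 (66 and 1 reads) and Rps27rt (53 and 1) rest on 1 embryo read each.

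**Figure D5:**
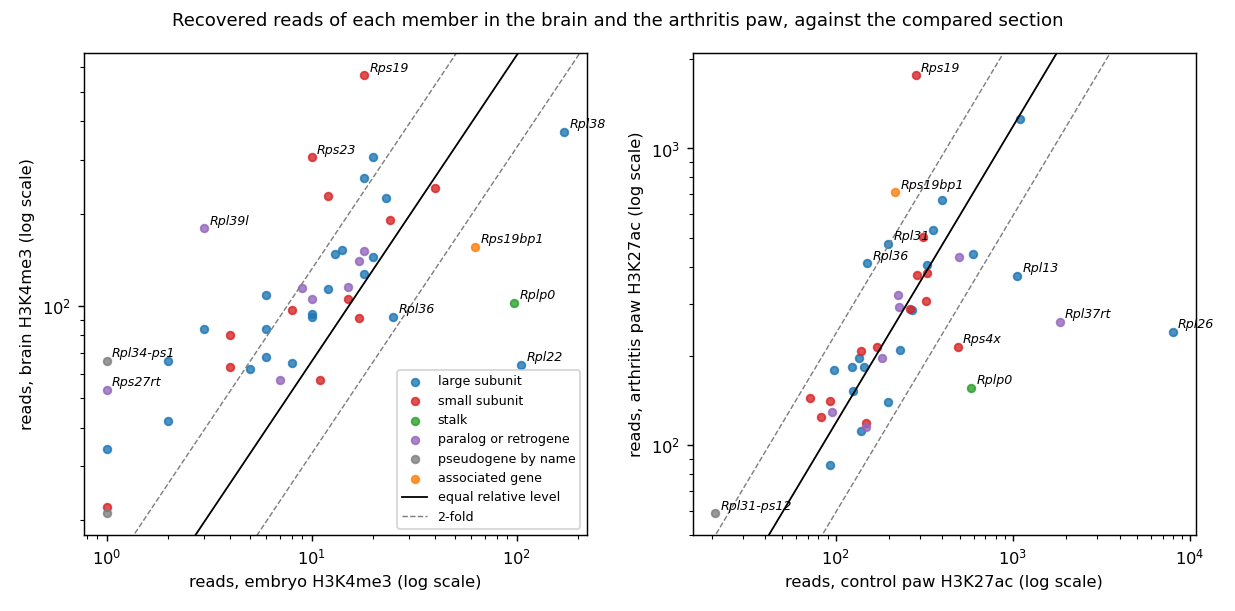
Recovered reads of each member in the brain against the embryo for H3K4me3 (left, 46 members) and in the arthritis paw against the control paw for H3K27ac (right, 42 members), both axes on log scales. The solid line marks equal relative level and the dashed lines 2-fold, Rps19 lies above the upper dashed line in both plots, and Rplp0 lies below the lower one in both.

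The arthritis paw held 42 of the 91 members (46.2%) and 57.4% of all genes. The members held had a median of 222 reads in the control paw and the 49 others had 75. In both paw sections the mark was H3K27ac. The median log2 ratio of the arthritis paw over the control paw was 0.06 over the 42 members and 0.11 over all 11130 genes. Past 2-fold, 3 members were higher in the arthritis paw (11.6% of all genes) and 5 were lower (7.88%). The members' median thus lay close to that of all genes.

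Rps19 was the member with the most reads in the arthritis paw, with 1766 (interval 1685 to 1850) at percentile 96.3, against 283 (251 to 318) at percentile 75.2 in the control paw. Its log2 ratio was 2.40 (2.21 to 2.58). Rps19bp1, whose product binds Rps19, had 711 and 217 reads (1.47, 1.24 to 1.69), and Rpl36 had 410 and 150 (1.20, 0.93 to 1.48). The genes on either side of Rps19 were not as high, with 259 reads for Dmrtc2 and 291 for Cd79a in the arthritis paw. Reads of Rps19 were present in 725 of 943 spots, where 745 are expected from spot depth.

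Rpl26, a large subunit protein that also binds the mRNA of p53, was lower in the arthritis paw by far. It had 241 reads there (212 to 273) at percentile 43.6, against 7973 in the control paw at percentile 99.7. The control sum is a lower bound, since 76.0% of those reads lay at counts too rare to be recovered exactly, and the log2 ratio was -5.29 or lower (exact interval -5.48 to -5.11 by counting error). Rpl26 alone held 31.7% of the members' reads in the control paw. Elsewhere it was a low member, with 8 embryo reads for H3K27me3, 6 for H3K27ac and 10 for H3K4me3. The genes beside it, Rnf222 and Odf4, had 165 and 266 reads in the control paw.

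The retrogene Rpl37rt had 260 reads in the arthritis paw and 1834 in the control paw (log2 ratio -3.07, -3.26 to -2.88). Rplp0 had 156 and 581 (-2.14, -2.41 to -1.89), Rpl13 had 372 and 1057 (-1.75, -1.93 to -1.58) and Rps4x, the X-linked small subunit gene, had 215 and 487 (-1.43, -1.66 to -1.19). Rpl17 was high in both paws, with 1258 reads in the arthritis paw and 1093 in the control paw. Of its arthritis paw reads, 1070 coincided by spot with those of BC031181.

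The remaining members described here were not past 2-fold between the paws once 0.1 was added to each level. Rpl31, a large subunit protein, had 477 reads in the arthritis paw and 197 in the control paw (log2 ratio 1.03, 0.79 to 1.28), and its pseudogene Rpl31-ps12 had 59 and 21 (1.24, 0.50 to 2.04). With 0.1 added, these were 0.90 and 0.55. Rps6 had 141 and 93 (0.35, -0.03 to 0.75) and Rpl13a had 406 and 327 (0.07, -0.15 to 0.28), so the intervals of both hold 0. Rpsa had 119 and 148 (-0.56, -0.92 to -0.20) and Rpl5 had 210 and 231 (-0.38, -0.66 to -0.11).

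In array columns 1, 5, 9, 13, 17 and 21 the control paw had a different mix of reads. These columns held 12.9% of its reads, and relative to that share Rpl26 was at 0.49, Rpl37rt at 0.48, Rps4x at 0.65, Rplp0 at 0.68, Rps19 at 1.23 and Rps19bp1 at 1.86. In the arthritis paw, where the columns held 18.3% of the reads, the same genes lay between 0.84 and 1.18. Without these columns in both paws, a setting chosen after the data were seen, the log2 ratio with 0.1 added was -5.19 for Rpl26, -2.96 for Rpl37rt, -1.88 for Rplp0, 2.29 for Rps19 and 1.46 for Rps19bp1, against -5.04, -2.85, -1.85, 2.24 and 1.31 with them. Rpl36 was at 0.98 without them and at 1.02 with them, so 2 members and not 3 were past 2-fold higher, beside 12.0% of all genes. The same number, 5, was past 2-fold lower, beside 7.59% of all genes.

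The promoter windows of the members that differed most between the paws are shown in the same form, with Rps19 also being the highest member in the brain.
Rps19: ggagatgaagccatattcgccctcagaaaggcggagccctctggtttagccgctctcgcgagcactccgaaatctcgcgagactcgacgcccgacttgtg
Rpl26: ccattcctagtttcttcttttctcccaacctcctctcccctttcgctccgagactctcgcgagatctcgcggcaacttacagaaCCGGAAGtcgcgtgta
They lie at chr7:24884512-24884611 (plus strand) for Rps19 and chr11:68901486-68901585 (plus strand) for Rpl26. Rpl26 has an ETS match just downstream of its start, and the Rps19 window holds none of the listed motifs. RefSeq lists 3 windows for Rps19, of which 1 is shown. No window was matched for Rpl29 or Rpl21.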

How the data were processed

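The deposited files hold signal values per gene and spot, which the authors quantile-normalised within each section. The tools MACS2, featureCounts and Bowtie2 and the builds mm9 and hg19 are named in the submitters' processing notes; their versions and roles were not given in those notes as used here. Because tied genes had been ranked in a fixed gene order, reads were recovered from the ranks (Python 3.11.15, numpy 2.4.6, pandas 2.3.3, scipy 1.17.1), exact up to counts held by at least 5 genes in a spot. Sums with over 10% of reads beyond that are lower bounds. The recovery was also run on simulated data whose tied genes followed the order it assumes. That run cannot show that the deposited files follow this order. The deposited signal served as an alternative. All 91 members matched RefSeq (GRCm38.p6), which was used for names, neighbours and promoter windows. Members, lists, comparisons and the use of recovered reads were chosen with earlier results of these data known. Named members are those of fixed roles, the 5 highest and 5 lowest ratios of each comparison at 20 or more reads, and the 5 with the most reads per section. Some results are not reported here. Printed intervals are exact at 95% (Clopper-Pearson for shares and ratios, Poisson for reads) and cover counting error only.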

Additional observations from a re-analysis of the deposited data

How the results depend on the processing

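No paired analysis was possible because each group has 1 section. The members' median log2 ratio minus that of all genes stayed between -0.32 and 0.14 over the alternatives run in all 5 comparisons. Each value was set against a 95% binomial interval of the members' median as reported. That interval treats members as independent, which they are not, so it serves as a yardstick and not as a test. The value left it for H3K27ac over H3K4me3 alone, at -0.29 with genes under 20 reads left out and at -0.32 in the odd array columns, against 0 as reported. The median percentile stayed below 50 in every section and alternative (32.6 to 49.8), and was 33.8 for embryo H3K27me3 with genes under 20 reads left out. Relative variance over spots in the control paw was 0.92 in the even columns and reached 1.22 over the alternatives run.

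Counts past 2-fold moved most often with the pseudocount. The share of all genes past it under the same setting is in brackets. With a pseudocount of 1, H3K27me3 over H3K4me3 had 2 higher (4.66%) and 5 lower (3.82%), H3K27ac over H3K4me3 had 4 higher (4.41%) and 5 lower (3.65%), H3K27me3 over H3K27ac had 3 lower (4.05%), brain over embryo had 1 higher (2.03%), and arthritis over control had 1 higher (4.37%) and 3 lower (3.85%). With 0.01, these were 16 higher (21.4%), then 22 higher (26.6%) and 13 lower (13.6%), then 9 higher (14.9%) and 19 lower (21.4%), and, for the paws, 5 higher (14.6%). With genes under 20 reads left out, 4 of 39 members were higher in H3K27me3 (20.96%) and 7 of 40 in H3K27ac (23.3%) than in H3K4me3. With median scaling, 13 were lower in H3K27ac than in H3K4me3 (15.1%), 11 were higher in H3K27me3 than in H3K27ac (15.4%) and 7 were higher in the brain (12.7%). Without members sharing reads, 5 of 71 were lower in H3K27me3 than in H3K4me3 (10.4%). In H3K27me3 over H3K27ac, deposited values gave 5 higher (11.2%), odd columns 8 (14.5%), even columns 6 (13.3%) with 19 lower (18.3%), spots of more reads 7 (12.3%) and the mean of spot shares 6 (10.9%). Even columns gave 22 higher in H3K27ac than in H3K4me3 (25.1%). The cause was not tested.

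Of the named genes, Rps27rt turned from higher to -0.12 in H3K27ac over H3K4me3 in the odd columns, on 6 and 1 reads. Depth limits the embryo sections most, where 13 members (H3K4me3), 23 (H3K27ac) and 31 (H3K27me3) had 20 or more reads.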
